A study of Mus musculus with 3 samples.

Results

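The hyaluronan and small proteoglycan genes described here are 8 genes of the pericellular matrix: Hapln1, Has2, Cd44, Vcan, Bgn, Dcn, Lum and Hmmr. They were chosen by name from 18193 genes on the array, with earlier results in view: Hapln1 for its level in Flk1+ cells, Dcn and Bgn because they differed in opposite directions, and the other members because they make, bind or organise hyaluronan. All 29 probe sets that the annotation assigns to these genes alone were read on all 3 arrays. The cells came from A2.snail, a mouse embryonic stem cell line in which doxycycline switches on Snail, the zinc finger repressor that drives epithelial to mesenchymal transition. They grew as embryoid bodies at 50000 cells per mL in medium with 10% serum and DKK1, a secreted Wnt inhibitor, and were harvested at day 3 and separated by Flk1, a receptor for VEGF and the product of Kdr, which marks mesoderm able to form vessels and blood. The groups were the Flk1+ fraction of an embryoid body culture that received doxycycline at 250 ng/mL from day 2 (Snail-induced Flk1+ cells), the Flk1- fraction from that treatment (Snail-induced Flk1- cells), and cells labelled Flk1- that received no doxycycline (untreated Flk1- cells), with 1 array each. Whether the untreated cells went through the same sorter is not given in the labels. All of them carried the inducible Snail gene and had DKK1 in the medium. No untreated Flk1+ cells and no doxycycline-treated cells without the Snail gene were analysed here, so Snail and doxycycline cannot be told apart.

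Hyaluronan is a long unsulfated sugar polymer that Has2 spins out through the plasma membrane. Versican, encoded by Vcan, is a large chondroitin sulfate proteoglycan that binds it, and the link protein encoded by Hapln1 locks the pair together. Cd44 is the main cell surface receptor for hyaluronan, while Hmmr also binds it but acts in dividing cells on the mitotic spindle. Biglycan (Bgn), decorin (Dcn) and lumican (Lum) are small leucine-rich proteoglycans that bind collagen fibrils, and the first pair also bind TGF-beta. In mouse embryos Has2, Vcan and Hapln1 are needed for the hyaluronan-rich cushions of the forming heart.

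Promoter sequence is shown for Hapln1 and Bgn, which were both more than 2-fold higher in Flk1+ than in Flk1- cells of the induced culture. The RefSeq promoter table gives the 250 bases before 1 chosen transcript start on GRCm38.p6, and a gene can begin farther upstream. Only bases outside the annotated gene are printed, 5′ to 3′ on the gene's own strand: 143 bases at chr13:89540386-89540528 (plus strand) for Hapln1, whose window runs another 107 bases into the gene, and all 250 bases at chrX:73483351-73483600 (plus strand) for Bgn. Capitals mark GGAA, the core letters that ETS factors bind, on either strand.
Hapln1: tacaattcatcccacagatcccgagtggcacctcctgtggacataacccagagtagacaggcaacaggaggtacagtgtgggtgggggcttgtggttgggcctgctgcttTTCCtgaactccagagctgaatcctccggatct
Bgn: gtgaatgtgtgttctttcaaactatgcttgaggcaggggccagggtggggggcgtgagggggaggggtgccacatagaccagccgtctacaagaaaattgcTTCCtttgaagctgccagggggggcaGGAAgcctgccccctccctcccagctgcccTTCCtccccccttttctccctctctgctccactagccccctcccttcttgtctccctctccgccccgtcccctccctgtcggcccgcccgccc
The table held 5 of the 8 genes, these and Vcan, Cd44 and Hmmr, and the Vcan window lay wholly inside the annotated gene. Over the whole windows of 250 bases, GGAA stood 2 times in Hapln1, 6 times in Vcan, 3 times in Bgn, 8 times in Cd44 and 4 times in Hmmr, and 93.4% of all 32851 promoter windows of this length held it. CAGGTG, the E-box that Snail and Zeb proteins bind, was in 0 of the 5 windows and in 17.2% of all windows, searched on both strands. TATAAA was in 0 of the 5 and in 12.4% of all. The GC box GGGCGG was found 2 times in Vcan, 3 times in Bgn, where 2 matches overlap, and 1 time in Hmmr, against 32.7% of all windows with at least 1. These counts describe letters in short windows before 1 start a gene and show no binding.

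Intensities are on a linear scale as deposited. A probe set is said to reach the floor at an intensity of 25.6, which is the 40th percentile over the 3 arrays, and a gene is measured if its brightest probe set does so on at least 1 array, which held for all 8 genes and for 13969 of the 18193. Differences are on the log2(intensity + 9.53) scale, and folds are their antilogs. If the dimmer of a pair was below the floor, the fold is the brighter value over the floor and is given as at least that size. Array medians were 44.6, 42.4 and 42.7 for Snail-induced Flk1+, Snail-induced Flk1- and untreated Flk1- cells. With 1 array a group nothing measures the spread between cultures, so no difference has a replicate check or a p-value, and the number of arrays limits the precision. In sorted bulk cells, fewer cells of a type and less RNA per cell cannot be told apart. Kdr stood at 404 in Snail-induced Flk1+ cells, against 9.73 in Snail-induced Flk1- and 10.5 in untreated Flk1- cells, as the gate requires, and Pou5f1, a gene of pluripotent cells, stood at 3607, 5963 and 5224 in the same order. The Snai1 probe set read 19.8, 13.1 and 29.1, close to the floor, and did not show the induced gene.

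Has2 (chr15:56665627-56694546), the synthase, was highest in Snail-induced Flk1+ cells by both of its probe sets. The brighter one gave 1734 in Snail-induced Flk1+, 487 in Snail-induced Flk1- and 214 in untreated Flk1- cells, and the other gave 1347, 333 and 154. The order of the 3 arrays was thus the same for both, with a step at the gate and a smaller one at induction. Has2 was 3.51-fold higher in Snail-induced Flk1+ than in Snail-induced Flk1- cells (log2 difference 1.81 and 1.99 by the 2 probe sets). Snail-induced Flk1- cells were 2.23-fold above untreated Flk1- cells (1.16 and 1.06). Among all measured genes it ranked 171st from the top for the gate and 278th for induction. The other synthase genes did not share this: Has1 read 2.72, 1.0 and 6.82 and Has3 read 13.3, 22.2 and 19.0 in the same order, under the floor on every array. Has2 was the synthase gene that reached the floor.

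Has2 needs UDP-glucuronic acid and UDP-N-acetylglucosamine, and the genes that make these sugars differed less. Ugdh, the dehydrogenase that makes UDP-glucuronic acid, stood at 1015 in Snail-induced Flk1+, 1005 in Snail-induced Flk1- and 671 in untreated Flk1- cells. Ugp2, which makes its precursor UDP-glucose, stood at 1501, 1053 and 718, and was 2.08-fold higher in Snail-induced Flk1+ than in untreated Flk1- cells. Gfpt1, the first enzyme of the hexosamine route, stood at 1178, 703 and 554 and was 2.11-fold higher in that comparison, although 1 of its 3 probe sets that reached the floor went the other way. Of the 7 measured genes of synthesis other than Has2, 2 were at least 2-fold higher in Snail-induced Flk1+ than in untreated Flk1- cells. In that comparison 0 were lower, and over all measured genes 8.1% were higher and 6.41% lower. Within the other pairs of arrays 0 of the 7 passed 2-fold. The shares of all measured genes past 2-fold either way were 4.98% at induction, 9.74% at the gate and 14.5% in Snail-induced Flk1+ against untreated Flk1- cells. In the turnover list 0 of 6 measured genes passed 2-fold in any comparison; Cemip2, a cell surface hyaluronidase, stood at 1673, 1151 and 925, and Hyal2 at 723, 599 and 509.

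Hapln1, the link protein, was seen almost only in the Flk1+ array. Its brightest probe set gave 1092 in Snail-induced Flk1+, 22.1 in Snail-induced Flk1- and 3.72 in untreated Flk1- cells. The other probe sets gave 552, 15.7 and 13.5, then 530, 11.5 and 1.0, and then 91.3, 3.35 and 4.83. All 4 reached the floor in Flk1+ cells and none did so on either Flk1- array. The difference between Snail-induced Flk1+ and Snail-induced Flk1- cells was at least 42.7-fold by the brightest probe set and at least 21.6-fold, 20.7-fold and 3.57-fold by the others. It ranked 5th of 13969 measured genes. This level chose the gene, so it is a description. Between the Flk1- arrays the log2 difference was 1.25 by the brightest probe set and 0.13, 1.0 and -0.16 by the others in the order above, all from values under the floor, so no fold is given there.

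Vcan, the proteoglycan that Hapln1 links to hyaluronan, had another order of arrays: highest in Snail-induced Flk1- cells. The brightest probe set gave 525 in Snail-induced Flk1+, 998 in Snail-induced Flk1- and 236 in untreated Flk1- cells. The other two that reached the floor gave 161, 273 and 66.6, and 87.0, 159 and 30.5. All 3 put the arrays in this order. Snail-induced Flk1- cells were 4.10-fold above untreated Flk1- cells (log2 differences 2.04, 1.89 and 2.08), the largest difference among the 8 genes for induction and 39th from the top of all measured genes. Averaged over all 8 probe sets, those under the floor included, the log2 difference was 0.94, within 2-fold. Snail-induced Flk1+ cells were 1.89-fold below Snail-induced Flk1- cells (-0.92, -0.73 and -0.81), which does not pass 2-fold, and 2.17-fold above untreated Flk1- cells, where the average over all probe sets was 0.51. The other 5 of its 8 probe sets stayed under the floor on every array, between 1.18 and 18.0, and carry no order.

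**Figure D1:**
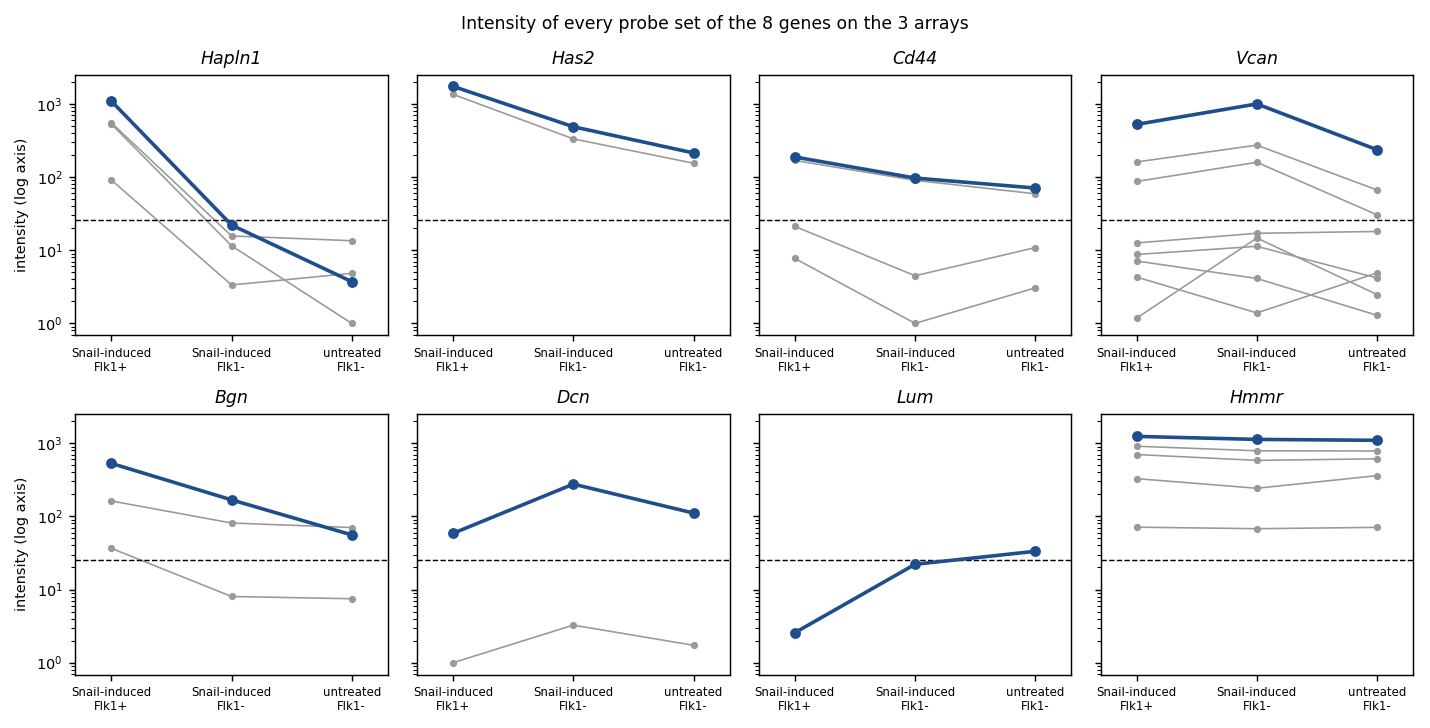
Intensity (log axis) of each of the 29 probe sets of the 8 genes in Snail-induced Flk1+, Snail-induced Flk1- and untreated Flk1- cells, 1 array each; the blue line is the brightest probe set of a gene, grey lines are its others, and the dashed line is the floor of 25.6. By their brightest probe set (blue), Hapln1 clears the floor in Flk1+ cells only, Has2, Cd44 and Bgn descend from left to right, Vcan and Dcn peak in Snail-induced Flk1- cells, and Hmmr lies between 1095 and 1238; several grey lines under the floor have another order.

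Cd44 (chr2:102811141-102901669), the receptor, differed in the same order as Has2 but by less. The brightest probe set gave 188 in Snail-induced Flk1+, 96.9 in Snail-induced Flk1- and 70.8 in untreated Flk1- cells, and a second gave 168, 90.2 and 59.1. Snail-induced Flk1+ cells were 2.46-fold above untreated Flk1- cells (log2 differences 1.30 and 1.38), while the steps between them, 1.85-fold at the gate and 1.33-fold at induction, each stayed within 2-fold. With the mean of all 4 probe sets the first of these log2 differences was 0.93, also within 2-fold. A further 2 probe sets stayed under the floor on every array, with 21.2, 4.48 and 10.9 for the brighter of them. Esrp1, a splicing factor that in other mouse and human epithelial cells favours the longer Cd44 isoforms, stood at 38.3, 356 and 1215 in the same order; whether the probe sets read different isoforms was not tested.

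Hmmr (chr11:40701388-40733464), the other hyaluronan receptor of the group, differed little across the arrays. Its brightest probe set gave 1238 in Snail-induced Flk1+, 1126 in Snail-induced Flk1- and 1095 in untreated Flk1- cells. The other 4 gave 909, 787 and 782, then 700, 582 and 612, then 328, 242 and 360, and then 71.1, 67.8 and 70.7. None of the 5 came near 2-fold: the log2 differences ran from -0.56 to 0.04 at induction and from 0.06 to 0.42 at the gate, and the sign of the first depends on the probe set and on the scaling. Hmmr thus also shows how far probe sets of 1 gene scatter on these arrays. Of the spindle genes listed beside it, 0 of 13 measured genes passed 2-fold in any comparison, beside 4.98% of all measured genes at induction, 9.74% at the gate and 14.5% in Snail-induced Flk1+ against untreated Flk1- cells, so that few would be past it at those shares. Their median log2 differences were -0.01 at induction and 0.02 at the gate; Tpx2, a spindle assembly factor that binds Hmmr, stood at 1791, 1408 and 1258, and the kinase gene Aurka at 1282, 1351 and 1402.

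Biglycan and decorin, close relatives in structure, parted at the Flk1 gate. Bgn (chrX:73483601-73495936) gave 530 in Snail-induced Flk1+, 168 in Snail-induced Flk1- and 55.8 in untreated Flk1- cells by its brightest probe set. The others gave 162, 81.1 and 70.4, and 36.6, 8.03 and 7.48. All 3 were highest in Flk1+ cells, but they disagreed on the size of the induction step, with log2 differences of 1.44, 0.18 and 0.05. By the brightest one Bgn was 3.04-fold higher at the gate and 2.72-fold higher at induction, and by the second 1.90-fold and 1.13-fold. The call at induction therefore rests on 1 probe set, and the mean of all 3 gave a log2 difference of 0.56.

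Dcn gave 58.6 in Snail-induced Flk1+, 276 in Snail-induced Flk1- and 111 in untreated Flk1- cells by the only probe set that reached the floor; a second one stayed between 1.0 and 3.26. It was lowest in Flk1+ cells and highest in Snail-induced Flk1- cells. Dcn was 4.19-fold lower in Snail-induced Flk1+ than in Snail-induced Flk1- cells, 98th from the bottom of all measured genes, and 2.37-fold higher in Snail-induced Flk1- than in untreated Flk1- cells. Averaged with the dim probe set, the difference at induction was 0.71 on the log2 scale, within 2-fold. Snail-induced Flk1+ cells were 1.77-fold below untreated Flk1- cells, within 2-fold. The opposite directions of Bgn and Dcn at the gate were part of the choice of these genes and are a description.

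Lum was dim everywhere. Its single probe set gave 2.57 in Snail-induced Flk1+, 22.1 in Snail-induced Flk1- and 33.3 in untreated Flk1- cells, so it reached the floor on the untreated array alone. It was at least 1.30-fold lower on each induced array than in untreated Flk1- cells, and no fold is given between the induced arrays, both under the floor. Among the other small leucine-rich proteoglycans, Podn stood at 124, 50.3 and 84.4 and was 2.23-fold higher in Snail-induced Flk1+ than in Snail-induced Flk1- cells. Fmod, which like Lum binds collagen fibrils, stood at 129, 136 and 228 by its brightest probe set, and the second of its probe sets had the opposite sign in each comparison. Ogn reached the floor in Flk1+ cells only, at 37.2. Of the 6 measured genes of the list outside the 8, 1 was higher and 0 lower at the gate, and 0 passed 2-fold at induction. Over all measured genes 4.85% were higher and 4.89% lower at the gate, and 4.98% passed 2-fold either way at induction.

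Across the 8 genes, 5 were at least 2-fold higher in Snail-induced Flk1- than in untreated Flk1- cells (Vcan, Bgn, Hapln1, Dcn and Has2, Hapln1 from values under the floor) and 0 were lower. Over all measured genes the shares past 2-fold were 2.95% upward, 2.03% downward and 4.98% either way. Without Hapln1, whose values both lay under the floor and whose difference became 0 with values set to the floor, 4 of the other 7 were higher. The median log2 difference was 1.20 over the 8, 1.16 without Hapln1 and 0.04 over all measured genes. In Snail-induced Flk1+ against Snail-induced Flk1- cells, 3 were higher (Hapln1, Has2 and Bgn) and 2 lower (Dcn, and Lum from values under the floor), beside 4.85%, 4.89% and 9.74% of all measured genes that were higher, lower or either. Without Lum, 1 of the other 7 was lower. These contrasts chose part of the members, so the shares are not read against each other. In Snail-induced Flk1+ against untreated Flk1- cells, 5 were higher (Hapln1, Bgn, Has2, Cd44 and Vcan) and 1, Lum, lower, beside 8.1% of all measured genes higher, 6.41% lower and 14.5% either. This comparison is the sum of the others on the log scale and shares an array with each, so it adds nothing independent.

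**Figure D2:**
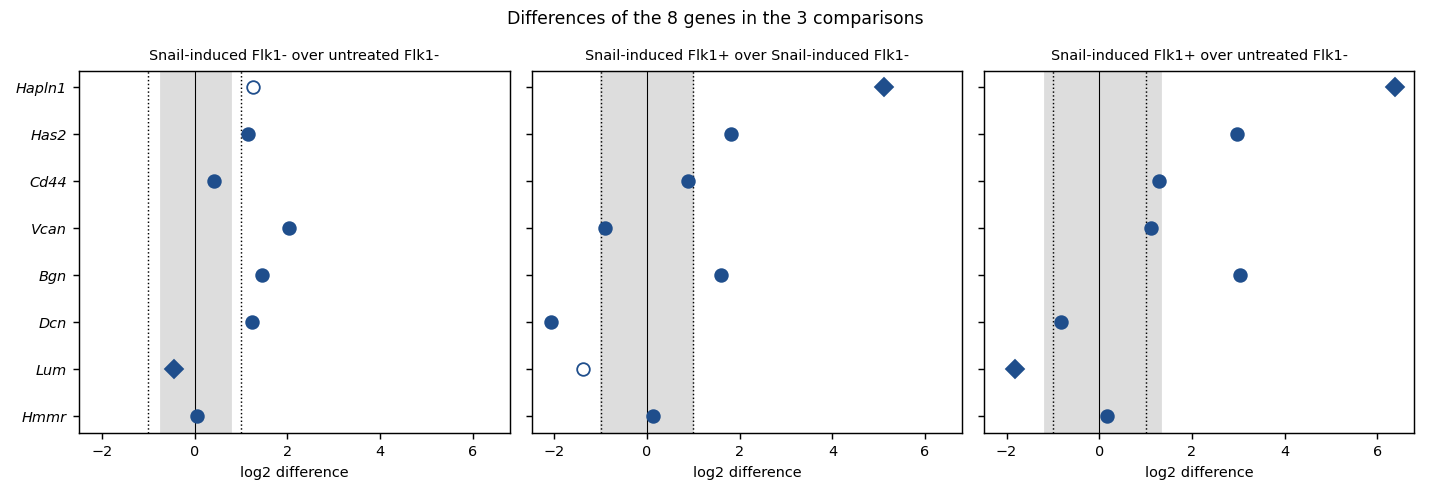
Log2 difference of the brightest probe set of each of the 8 genes in the 3 comparisons, 1 array a group and so without error bars; the grey band holds the central 90% of all measured genes, dotted lines mark 2-fold, diamonds have 1 value under the floor and open circles have both. Hapln1 lies farthest right in both Flk1+ comparisons, and Dcn lies right of 2-fold at induction and left of it at the gate.

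The genes around them were set beside the 8 as lists of hyaluronan and proteoglycan biology, chosen with earlier results known. Outside the 8, 61 such genes were measured. At induction 5 of them passed 2-fold upward and 1 downward, and their median log2 difference was 0.23, against 0.04 over all measured genes, of which 2.95% were higher and 2.03% lower. The 1 downward was Ptx3, with a value under the floor. At the gate the counts were 7 and 2, beside shares of 4.85% and 4.89% over all measured genes, and the median 0.20 against 0.00. In Snail-induced Flk1+ against untreated Flk1- cells they were 18 and 4, beside 8.1% and 6.41% over all measured genes, and the median 0.51 against 0.01.

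Among the other link proteins and hyaluronan-binding proteoglycans, brain forms differed among themselves. Ncan, neurocan of the brain matrix, stood at 35.5 in Snail-induced Flk1+, 117 in Snail-induced Flk1- and 128 in untreated Flk1- cells, and was 2.82-fold lower at the gate. Hapln4, a brain link protein, stood at 33.7, 52.3 and 111 and was 2.80-fold lower in Snail-induced Flk1+ than in untreated Flk1- cells. Hapln2, another brain link protein, reached the floor in Flk1+ cells only, at 36.7, 13.6 and 12.0, and was at least 1.43-fold higher there than in untreated Flk1- cells. Acan, the aggrecan of cartilage, stood at 51.5, 43.6 and 31.2, within 2-fold in each comparison. Itih5, whose protein family is carried on hyaluronan, stood at 128, 159 and 33.7 and was 3.90-fold higher at induction. Stab1, a scavenger receptor of sinusoidal endothelium and macrophages, stood at 183, 88.9 and 77.8 and was 2.21-fold higher in Snail-induced Flk1+ than in untreated Flk1- cells, while the lymphatic hyaluronan receptor gene Lyve1 stayed under the floor at 3.46, 9.76 and 9.40.

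Versican, biglycan and decorin carry chondroitin or dermatan sulfate chains, and 19 genes of chain synthesis were measured. Csgalnact1, which starts the chondroitin chain, stood at 228 in Snail-induced Flk1+, 14.9 in Snail-induced Flk1- and 24.1 in untreated Flk1- cells, and was at least 8.93-fold higher at the gate. Chst7, a sulfotransferase of the chain, stood at 304, 81.8 and 73.2 and was 3.44-fold higher at the gate. Chsy3, a chain polymerase, stood at 72.3, 34.6 and 11.1 and was at least 1.35-fold higher at induction and at least 2.83-fold higher in Snail-induced Flk1+ than in untreated Flk1- cells. Chsy1, another polymerase, stood at 1792, 1146 and 727, in the same order of arrays. Xylt2, which puts the first sugar on the core protein, went the other way at 8.97, 42.5 and 31.9, at least 1.66-fold lower at the gate. In all, 1 of the 19 was higher and 0 lower at induction, and 2 were higher and 1 lower at the gate. The 1 higher at induction, Chsy3, and the 1 lower at the gate, Xylt2, each had a value under the floor. In Snail-induced Flk1+ against untreated Flk1- cells 7 were higher and 1 lower. Over all measured genes the shares higher and lower were 2.95% and 2.03% at induction, 4.85% and 4.89% at the gate, and 8.1% and 6.41% in the last comparison.

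Matrix partners of versican were mostly higher in Flk1+ cells. Fn1, fibronectin, stood at 6394 in Snail-induced Flk1+, 1640 in Snail-induced Flk1- and 1367 in untreated Flk1- cells. Fbn2, the fibrillin of embryonic tissue, stood at 1451, 433 and 107, 3.30-fold higher at the gate and 3.78-fold higher at induction. Fbln2, a fibulin that binds versican, stood at 161, 123 and 49.3 and was 2.26-fold higher at induction. Of 5 measured genes of this list, 2 were higher at induction, 3 at the gate and 4 in Snail-induced Flk1+ against untreated Flk1- cells, with 0 lower. Over all measured genes 2.95%, 4.85% and 8.1% were higher in these comparisons, and 2.03%, 4.89% and 6.41% lower. Of the proteases that cut versican and its relatives, Adamts1 stood at 551, 178 and 150 and was 3.00-fold higher at the gate, Adamts20 stood at 38.0, 63.1 and 17.5 and was at least 2.47-fold higher at induction, and Adamts9 stood at 444, 490 and 568, within 2-fold throughout.

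**Figure D3:**
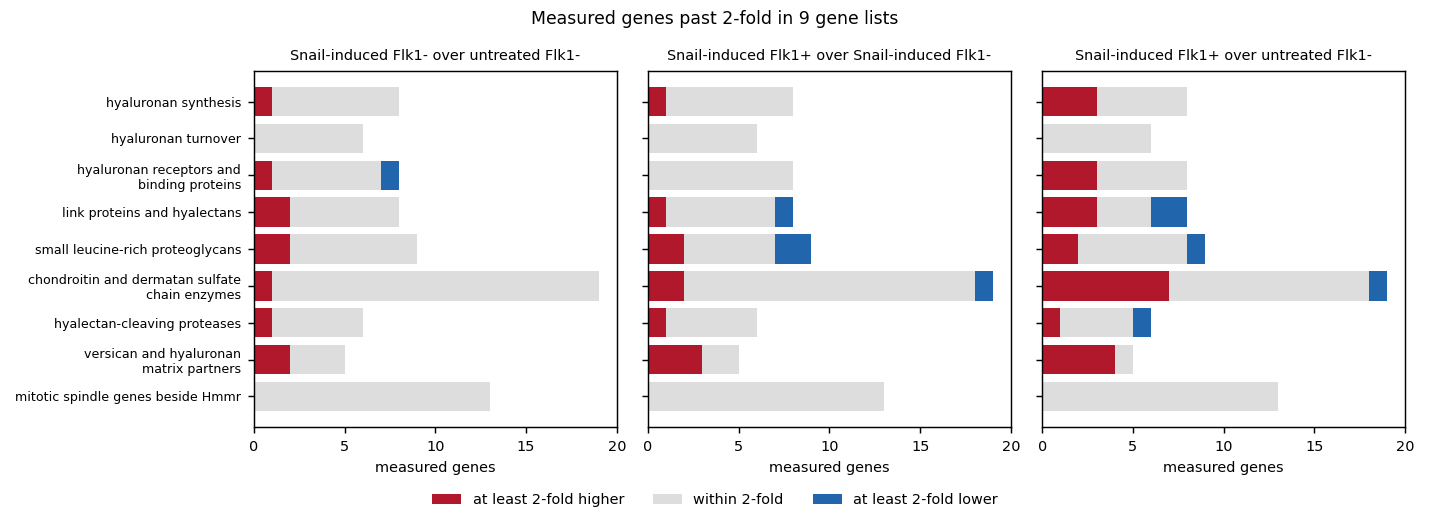
Number of measured genes at least 2-fold higher (red), within 2-fold (grey) and at least 2-fold lower (blue) in 9 gene lists and 3 comparisons, the 8 genes included where a list holds them. Chondroitin and dermatan sulfate chain enzymes hold 7 higher genes of 19 in Snail-induced Flk1+ against untreated Flk1- cells, beside 8.1% of all measured genes. The spindle list holds 0 in every comparison.

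The 8 genes include neighbours on 2 chromosomes, which allows a look at the loci. Hapln1 (chr13:89540529-89611832 on GRCm38.p6, plus strand) and Vcan (chr13:89655309-89743027, minus strand) lie 43.5 kb apart with their ends facing. Next to Hapln1 on the other side, after 217.3 kb, lies Edil3, which encodes a secreted protein of embryonic vessels. Edil3 stood at 669 in Snail-induced Flk1+, 166 in Snail-induced Flk1- and 27.2 in untreated Flk1- cells, with all 4 of its probe sets that reached the floor in the same direction in each comparison. It was 3.87-fold higher at the gate and 4.78-fold higher at induction. Xrcc4, a DNA repair gene beyond Vcan, stood at 140, 175 and 166, and Tmem167 after it at 2165, 2587 and 2472. Edil3, Hapln1 and Vcan lie side by side. All 3 were at least 2-fold higher in Snail-induced Flk1+ than in untreated Flk1- cells, while the next genes outward from Vcan were within 2-fold. With the mean of all probe sets, the log2 difference of Vcan there was 0.51, within 2-fold. At the gate Edil3 and Hapln1 were higher, while Vcan was 1.89-fold lower, within 2-fold. Hapln1 was chosen for its level in Flk1+ cells, and shared control of the 3 genes was not tested.

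Dcn (chr10:97479500-97518163) and Lum (chr10:97565501-97572703) lie 47.3 kb apart, followed by Kera and Epyc of the same protein family. Dcn had its lowest value in Flk1+ cells. Lum reached the floor in untreated Flk1- cells only, so the induced arrays give it no order. Kera stayed under the floor at 4.08 in Snail-induced Flk1+, 5.73 in Snail-induced Flk1- and 6.99 in untreated Flk1- cells. Epyc stood at 30.6, 13.1 and 27.8 in the same order, near the floor. Beside the other members, Dusp9, a MAP kinase phosphatase gene 143.5 kb from Bgn on chromosome X, stood at 814, 492 and 244. It was 3.25-fold higher in Snail-induced Flk1+ than in untreated Flk1- cells. The nearer neighbours of Bgn, Atp2b3 (6.8 kb), Haus7 (24.6 kb) and Trex2 (48.3 kb), were within 2-fold in every comparison. The genes beside Has2, Cd44 and Hmmr that were measured stayed within 2-fold in every comparison.

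**Figure D4:**
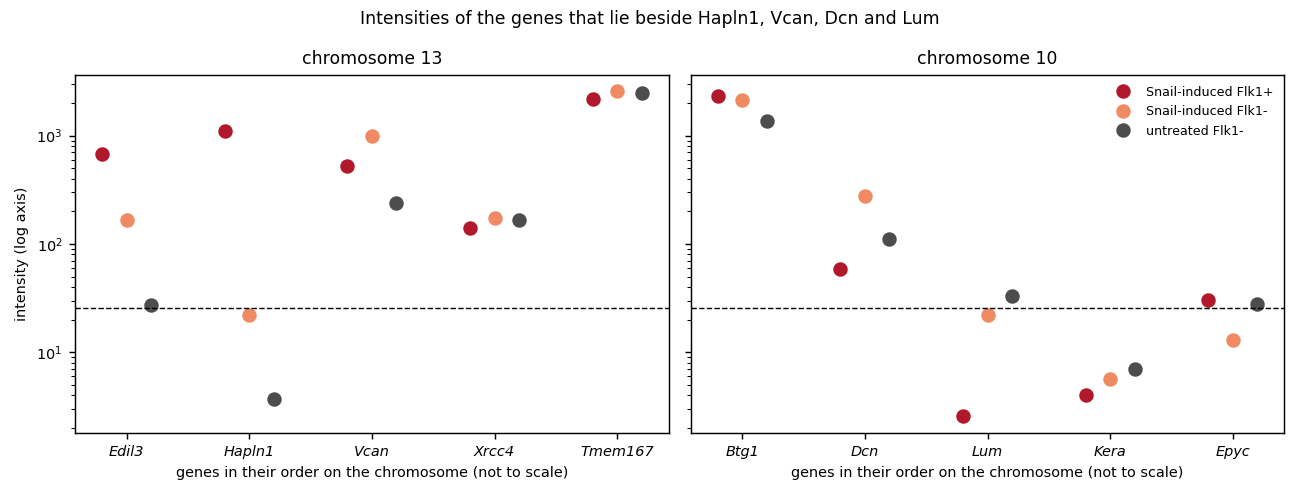
Intensity (log axis, dashed line at the floor of 25.6) of the brightest probe set of genes in their order along chromosomes 13 and 10, not to scale, with 1 point per array for Snail-induced Flk1+ (red), Snail-induced Flk1- (orange) and untreated Flk1- cells (dark grey); a gene without a probe set between Btg1 and Dcn is left out. Edil3 and Hapln1 are highest in Flk1+ cells, Vcan and Dcn in Snail-induced Flk1- cells.

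The genes whose pattern lay nearest were found by the Euclidean distance over the 2 log2 differences, at induction and at the gate, which rest on 3 arrays. Nearest to Hapln1 were Rhoj, Sox18, Aplnr, Tnfaip2 and Myct1, but both of its values at induction and one at the gate lay under the floor, so their distances and order rest on dim values and are not given. Nearest to Has2 were Gng11 (0.04), Nid1 (0.06) and Itpkb (0.07), and nearest to Bgn were Nrip1 (0.09), Ptprm (0.16) and Kirrel (0.16). For Vcan they were Fbln5 (0.08), Scn3a (0.15) and Alx1 (0.16), and for Dcn Shisa2 (0.10), Tnfsf11 (0.15) and Bnc2 (0.18). In untreated Flk1- cells Fbln5, Scn3a and Alx1 lay under the floor, at 9.62, 8.29 and 10.8, as did Itpkb at 25.1. The distances of these genes therefore rest in part on dim values. All distances use the brightest probe set of each gene. For Bgn that gave log2 differences of 1.44 at induction and 1.60 at the gate. Its other probe sets gave 0.18 and 0.05 at induction, and 0.92 and 1.39 at the gate. These values spread wider than the distances given for Bgn. Sox18 stood at 1082 in Snail-induced Flk1+, 30.2 in Snail-induced Flk1- and 3.33 in untreated Flk1- cells, and Shisa2 at 149, 612 and 252. Distances are small for members near the centre of all genes, such as Hmmr, whose nearest genes are not named for that reason.

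Lists of cell type markers were set beside the values of the 8 genes. Of 12 endothelial markers measured, 11 were at least 2-fold higher and 0 lower at the gate, where Hapln1, Has2 and Bgn were higher, and their summed intensity was 9404 in Snail-induced Flk1+, 1241 in Snail-induced Flk1- and 1212 in untreated Flk1- cells. Of 8 epithelial markers 7 were at least 2-fold lower at induction, where Has2, Vcan, Bgn and Dcn were higher, with a median log2 difference of -1.77, and 6 were lower at the gate, with sums of 1905, 6637 and 16545 for the 3 arrays. Of 8 pluripotent and epiblast markers 1 was lower at induction and 4 at the gate, with sums of 10874, 21858 and 23913. Of 11 measured feeder fibroblast markers, 4 were higher and 0 lower at induction, where Dcn, Bgn, Vcan and Has2 were higher. At the gate 0 of them passed 2-fold, where Dcn was lower and Hapln1, Has2 and Bgn were higher. The fibroblast sums were 1646, 1381 and 842. The 4 that were higher were Col3a1, at 191, 122 and 21.8, Pdgfrb, at 181, 204 and 71.3, Twist2, at 127, 93.0 and 22.1, and Fbln5, at 32.6, 66.5 and 9.62. The other 4 of the 15 listed, Col1a1, Postn, S100a4 and Fap, stayed under the floor on every array. Of 5 measured macrophage markers, 1 was lower at induction and 1 higher at the gate, with sums of 452, 333 and 451. Of 7 measured primitive and visceral endoderm markers, 0 passed 2-fold at induction, and 2 were higher and 1 lower at the gate, with sums of 2052, 903 and 700. The 2 higher were Sox17, at 1466, 96.2 and 68.3, and Gata6, at 152, 35.6 and 22.1. The 1 lower was Cubn, at 44.0, 257 and 220. Most of the Flk1+ sum was thus Sox17. The other 4 of the 11 listed, Foxa2, Afp, Ttr and Apoa1, stayed under the floor on every array. The part of these cell types in the results on the 8 genes was not tested.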

How the data were processed

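Biotinylated cRNA from 2 ug of column-purified total RNA of each sample was hybridised to Affymetrix arrays, per the labels' protocols. The authors deposited linear intensity values, 1 for each probe set on each array. How these were summarised and scaled is not given in any source used here. Of 45037 probe sets, 34945 had 1 gene symbol, 932 several and 9160 none in the platform annotation. Only the first kind was used, and symbols were brought up to date through Entrez IDs with RefSeq's GRCm38.p6 table, where 204 had no match.

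Python 3.11.15 with pandas 2.3.3 and numpy 2.4.6 was used. Intensities were turned into log2(intensity + 9.53), with an offset at the 20th percentile of the 3 arrays, so differences of dim genes are understated. The floor was the 40th percentile. Each gene was represented by the probe set with the highest mean on this scale, and at least 2-fold was counted, with no test because there was 1 array a group. The calling step was tested on simulated data with planted differences. Members and lists were chosen with earlier results of these data known. Named genes were the 8 members, up to 3 genes per list, comparison and direction past 2-fold, up to 2 protein-coding neighbours a side, and the 5 nearest genes by pattern. The text names part of these. Outside that rule, Esrp1, Has1, Has3, Ugdh, Cemip2, Hyal2, Lyve1, Acan, Fmod, Chsy1, Adamts9, Tpx2, Aurka, Pou5f1 and the named fibroblast, endothelial and endoderm markers other than Sox18 were added once their values had been seen. Of the 111 listed pathway genes, those without a probe set of their own were not analysed here. Promoter sequences are those of RefSeq on GRCm38.p6, the 250 bases before the start that its table uses. Alternatives were quantile normalisation, median centring, the mean of all probe sets, leaving out probe sets that can read several transcripts, other offsets and floors, and a 3-fold threshold; leaving out genes with both values under the floor was added after seeing the data.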

Additional observations from a re-analysis of the deposited data

How the results depend on the processing

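The 8 genes' log2 differences were recomputed under 9 alternatives, and the counts also with a 3-fold threshold. Of those differences 198 stayed on their side of 2-fold with their direction, 12 came to lie within 2-fold and 3 turned. Hmmr at induction, 0.04 as reported, turned to -0.0091 with quantile normalisation, -0.058 with median centring and -0.13 with the mean of all probe sets. That mean, which by construction mixes in probe sets under the floor, brought within 2-fold Vcan (0.94), Dcn (0.71), Bgn (0.56) and Hapln1 (0.56) at induction, and Cd44 (0.93) and Vcan (0.51) in Snail-induced Flk1+ against untreated Flk1- cells. The other 6 concerned Hapln1 at induction and Lum, each with at least 1 value under the floor. Has2 stayed past 2-fold under all 9 in each comparison (1.06 to 1.19 at induction, 1.78 to 1.90 at the gate), as did Hapln1 (4.31 to 5.15), Dcn (-2.23 to -1.17) and Bgn (1.31 to 1.66) at the gate.

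Of the counts under the alternatives chosen at the outset, 91 stayed within 1.5 times and 29 did not. The mean of all probe sets left 1 of the 5 members higher at induction and 3 of the 5 in Snail-induced Flk1+ against untreated Flk1- cells, and a 3-fold threshold left the same counts, 1 and 3. The 2 members lower at the gate became 1 with an offset at the 40th percentile, a floor at the 60th, values under the floor set to it, 3-fold, or, chosen after seeing the data, without Lum as a gene with both values under the floor. Lum, the 1 lower in Snail-induced Flk1+ against untreated Flk1- cells, dropped out (0) with the floor at the 60th percentile, where it was not measured, or with values set to the floor, and stayed with no floor. For all 69 measured pathway genes, the 8 included, the 10 higher at induction became 6 with the mean of probe sets and 3 at 3-fold. The 1 lower there became 2 with quantile normalisation, 3 with centring, 4 with no offset, 0 with the mean of probe sets, the larger offset, the floor at the 60th percentile, values set to the floor, or 3-fold, and stayed 1 with no floor. The 4 lower at the gate became 2 with the larger offset, the floor at the 60th percentile or values set to the floor, 1 at 3-fold, and 6 with no floor. The 23 higher in Snail-induced Flk1+ against untreated Flk1- cells became 14 with the mean of probe sets and 11 at 3-fold, and the 5 lower became 2 with the floor at the 60th percentile and 3 with values set to the floor or at 3-fold. The cause was not tested beyond these constructions. No paired analysis was possible because each group has 1 array and no result comes from a test. No replicate could be left out for the same reason. Signal over background limits Lum, Hapln1 in Flk1- cells and most small leucine-rich proteoglycans outside the 8.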
